A study of Mus musculus with 8 samples.

Results

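The genes described are the metalloproteases of the Mmp, Adam and Adamts families, the Adamts-like genes, and the Timp genes and Reck, which encode inhibitors. They were chosen by symbol, as every row of the RNA-seq table whose symbol begins with Mmp, Adam, Adamts, Adamtsl or Timp and a number, plus Reck. This gave 85 of 24062 listed genes: 23 Mmp, 33 Adam, 19 Adamts and 5 Adamtsl genes, 4 Timp genes and Reck. The study compared NIH3T3 clones, an immortalised mouse embryonic fibroblast line, stably transfected with a plasmid for 14-3-3ε carrying a FLAG tag, against NIH3T3 clones with the control vector. 14-3-3ε is an adaptor protein that binds phosphorylated partners. The labels of both groups give 10% fetal bovine serum and the same protocol, in which cells with the 14-3-3ε construct were selected in 800 µg/mL of G418. It names no separate selection for the control clones. Each clone was grown from a single colony, so 1 clone stands for 1 transfected cell line and not for a pool. 14-3-3ε clones 10 and 12 and control clones 2 and 3 were each measured by RNA-seq and by RRBS, bisulfite sequencing of a reduced genome that gives methylation at CpG sites of fragments cut by MspI. The vector drives 14-3-3ε from a CMV promoter.

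Metalloproteases use a zinc ion to cut proteins outside the cell or at its surface. Mmp enzymes degrade collagens and other matrix proteins, Adam enzymes release growth factors and receptors from the cell membrane, and Adamts enzymes are secreted and act on proteoglycans, procollagens and microfibrils. Adamts-like proteins share the accessory domains of Adamts enzymes but lack the protease. Timp proteins block the active sites of these enzymes, and Reck is a membrane-anchored inhibitor of several Mmps. Fibroblasts are a main source of many of these proteins in connective tissue.

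The RNA-seq table is the authors' own comparison. It gives for each gene a mean normalized count, a log2 fold change with its standard error, and p-values. Log2 fold changes are printed ± that standard error where it is given. Neither table states which group is on top of its comparison. Positive values were read as higher with 14-3-3ε than with the control vector, and every direction given rests on that reading. The mouse gene of 14-3-3ε, Ywhae, stood at a log2 fold change of -0.03 ± 0.18 (adjusted p 0.942) per the authors' deposited table, so it does not check the reading, and the sources used here do not give how transgene reads were counted. The mean normalized counts behave as means of whole reads divided by 1 size factor per library, and the deposited digits are fine enough to undo this. The means of 1097 genes with a single read took 4 values, which gave relative depths of 1.08 and 1.01 for the libraries on the side read as 14-3-3ε and 1 and 0.925 for those on the control side. With these depths the reads of 60 of the 64 members with reads were recovered for each library. They are the only whole numbers that return the deposited mean and, for means above 1000, a ratio of the groups close to that implied by the deposited fold. They are called recovered counts. The libraries of a group are called A and B, in an order that does not follow the clone numbers, because the tables do not tie them to clones. Adamts5, Mmp2, Timp2 and Timp3 have means above 10000 and were not split.

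Cells were checked by marker genes. All 12 fibroblast markers were tested, with mean normalized counts from 1005 for Twist1 to 424650 for Fn1 in the authors' deposited table, and 4 of them, Pdgfra, Pdgfrb, Col1a1 and Col1a2, were called higher. Summed recovered counts of 5 endothelial markers were 14.8 and 15.8 in 14-3-3ε libraries and 53 and 47.6 in control libraries, with Kdr at 0. The sums were 107 and 125 in 14-3-3ε libraries and 97 and 151 in control libraries for 5 blood cell markers, with Emr1 at 0. For 6 epithelial markers the sums were 16.7 and 148 in 14-3-3ε libraries and 33 and 30.3 in control libraries, and for 4 adipocyte markers 13.0 and 61.1 in 14-3-3ε libraries and 9 and 18.4 in control libraries. For 5 muscle markers they were 31.5 and 72.9 in 14-3-3ε libraries and 372 and 430 in control libraries, with Myog and Ckm at 0 and Myod1 at a mean of 0.25 in the authors' deposited table, and Des and Tnnt2 were called lower. The part of these markers in the results below was not tested. In bulk RNA, fewer cells of a type and less RNA per cell cannot be told apart.

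Promoters are shown here for Adamts9, the only member with a called start window in methylation, and for Timp3, whose window was not called. Those of Adamts2 and Reck are added, the members called in RNA with most listed cytosines in that stretch. Each stretch runs from 250 bases before to 50 bases after the start and is taken from RefSeq, build GRCm38.p6, the assembly of mm10, with capitals at CpG pairs that have a cytosine in the RRBS table. Adamts9 lies at chr6:92943485-92943784 on the minus strand, Timp3 at chr10:86300162-86300461, Adamts2 at chr11:50601835-50602134 and Reck at chr4:43875280-43875579, all 3 on the plus strand.
Adamts9: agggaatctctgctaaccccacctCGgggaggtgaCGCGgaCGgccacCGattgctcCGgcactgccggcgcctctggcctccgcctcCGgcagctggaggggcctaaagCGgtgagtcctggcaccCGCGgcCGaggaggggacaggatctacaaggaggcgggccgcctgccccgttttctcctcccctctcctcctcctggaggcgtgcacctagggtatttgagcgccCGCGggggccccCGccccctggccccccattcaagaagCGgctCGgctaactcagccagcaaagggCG
Timp3: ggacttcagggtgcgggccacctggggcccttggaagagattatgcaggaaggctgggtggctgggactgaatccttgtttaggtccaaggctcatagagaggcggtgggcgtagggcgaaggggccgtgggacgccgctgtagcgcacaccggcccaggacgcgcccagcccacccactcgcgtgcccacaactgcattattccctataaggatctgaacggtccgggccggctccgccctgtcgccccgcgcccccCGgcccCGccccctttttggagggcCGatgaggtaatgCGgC
Adamts2: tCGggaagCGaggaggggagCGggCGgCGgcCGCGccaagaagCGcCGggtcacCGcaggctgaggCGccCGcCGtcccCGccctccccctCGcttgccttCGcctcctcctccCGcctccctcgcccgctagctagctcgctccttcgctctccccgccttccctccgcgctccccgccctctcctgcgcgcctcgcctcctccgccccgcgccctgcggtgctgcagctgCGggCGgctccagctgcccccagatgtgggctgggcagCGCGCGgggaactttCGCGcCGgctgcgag
Reck: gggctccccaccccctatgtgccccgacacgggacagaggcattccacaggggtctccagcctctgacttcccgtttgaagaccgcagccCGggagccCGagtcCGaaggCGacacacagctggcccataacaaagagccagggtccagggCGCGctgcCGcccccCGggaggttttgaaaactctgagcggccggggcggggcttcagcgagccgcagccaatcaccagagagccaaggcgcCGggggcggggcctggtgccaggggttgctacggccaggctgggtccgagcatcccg
The Adamts9 stretch held 25 CpG pairs and 32 listed cytosines (both strands counted), of which 1 passed a q of 0.05. The Timp3 stretch held 24 CpG pairs and 9 listed cytosines, all near its 3′ end, of which 1 passed. The Adamts2 stretch, the densest of these with 41 CpG pairs, had 47 listed cytosines with 1 past the threshold, and that of Reck had 23 pairs and 17 listed cytosines with 0 past it. All 620 cytosines listed within the 59 promoters found for 54 members fell on a CpG of the RefSeq sequence.

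Mmp genes of chromosome 9 form the other set shown, because most of their promoters share a motif and their transcripts were nearly absent. The motif TGANTCA, which reads the same on both strands, was searched in all 32851 promoters of the RefSeq table and stood in 7.81% of them. The motif takes in TGAGTCA and TGACTCA, sites bound by AP-1 (dimers of Fos and Jun proteins), and also the looser TGAATCA, as in Mmp20. It stood in 13 of 59 member promoters, 22.0%, and 8 of the 13 belong to Mmp genes of this cluster. The motif was in 8 of 12 promoters found for the cluster, 1 in each of 8 of its 10 genes, and not in those of Mmp8 and Mmp27 or in another promoter each of Mmp12 and Mmp7. Each stretch of 31 bases has the motif in capitals.
Mmp13, chr9:7272467-7272497, plus strand: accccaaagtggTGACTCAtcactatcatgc
Mmp12, chr9:7347318-7347348, plus strand: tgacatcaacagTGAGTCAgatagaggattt
Mmp1b, chr9:7388101-7388131, minus strand: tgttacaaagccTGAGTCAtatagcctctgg
Mmp3, chr9:7445764-7445794, plus strand: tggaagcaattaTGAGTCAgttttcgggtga
Mmp1a, chr9:7464056-7464086, plus strand: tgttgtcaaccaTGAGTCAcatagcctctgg
Mmp10, chr9:7502267-7502297, plus strand: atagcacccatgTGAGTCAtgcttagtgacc
Mmp20, chr9:7628124-7628154, plus strand: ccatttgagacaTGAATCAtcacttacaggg
Mmp7, chr9:7692015-7692045, plus strand: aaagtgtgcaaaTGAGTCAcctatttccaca
The first base of the motif lay 35 bases before the start in Mmp13, 44 in Mmp12, 46 in Mmp3, 63 in Mmp10 and Mmp7, 73 in Mmp1a, 93 in Mmp1b and 95 in Mmp20. Of 7 promoters found for 5 called members, 1 held it, a start site of Adam19 whose stretch chr11:46055841-46055871 on the plus strand reads as follows.
Adam19: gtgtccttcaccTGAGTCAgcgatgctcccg
A match is a run of letters and not a binding site.

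At an adjusted p under 0.05, 11 of 35 tested members were higher in 14-3-3ε clones and 0 were lower. Over all genes tested, 6.15% were called higher and 4.74% lower. The 11 were Mmp9, Mmp14 and Mmp19, Adam12 and Adam19, Adamts1, Adamts2, Adamts4, Adamts6 and Adamts10, and the inhibitor gene Reck. They make up 3 of 8 tested Mmp genes, 2 of 10 Adam genes, 5 of 11 Adamts genes, 0 of 2 Adamtsl genes and 1 of 4 inhibitor genes. The median log2 fold change of the 35 was 0.36, beside -0.00 over all 11482 tested genes, and 29 of the 35 were above 0, or 82.9%, beside 49.8% of all tested genes. Another 29 members had reads but too few for an adjusted p, and 21 were listed at 0. The smallest mean normalized count with an adjusted p among members was 33.6, so the count of called members covers only genes above about that level. Of the 29 without an adjusted p, 1 had an unadjusted p under 0.05, Adamts16.

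**Figure D1:**
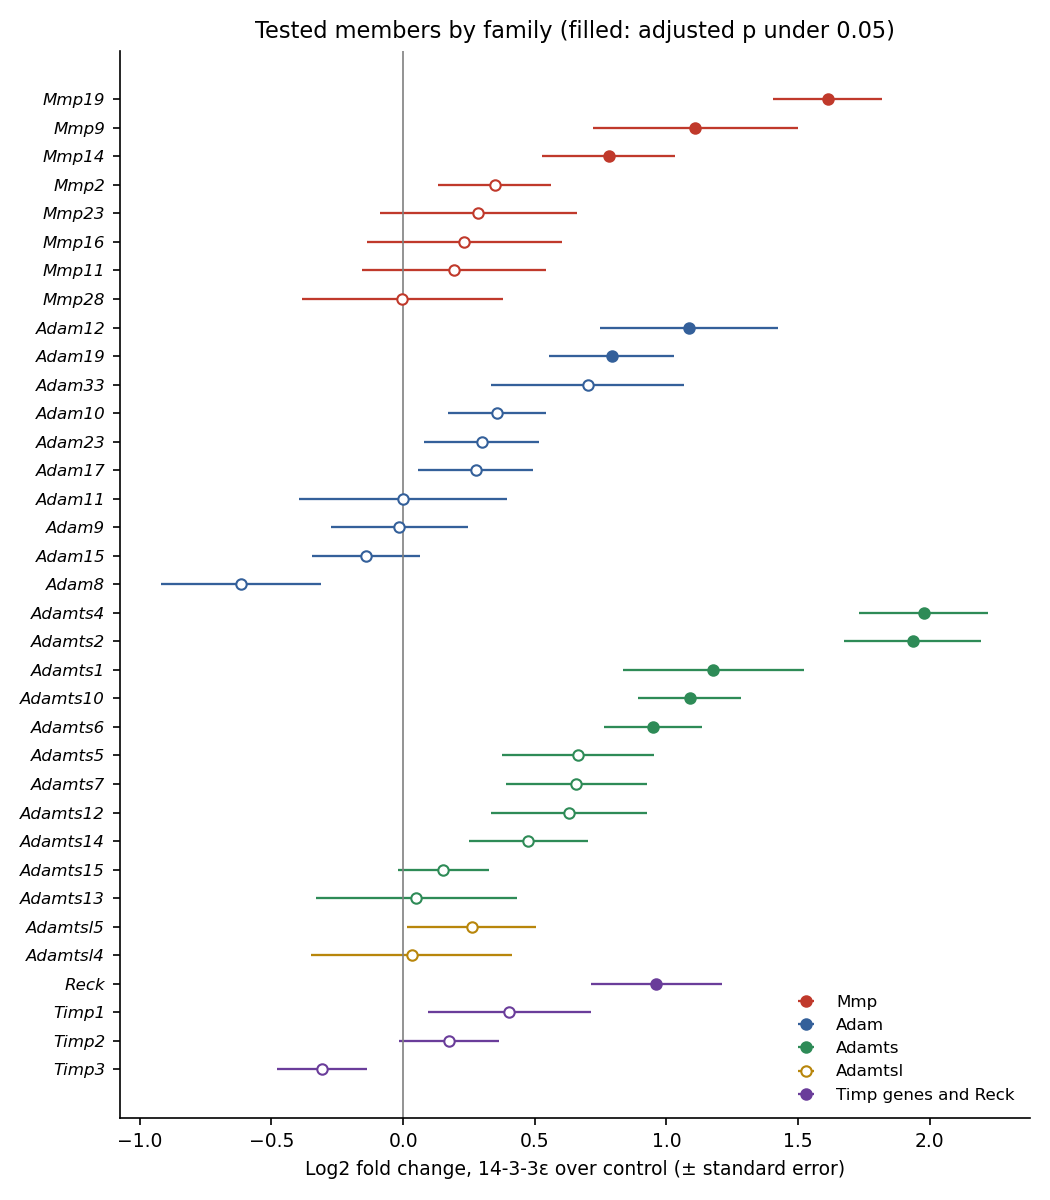
Log2 fold change (14-3-3ε over control, x axis) with its standard error for the 35 members with an adjusted p, in the authors' deposited table, grouped by family. Filled points passed an adjusted p of 0.05; all 11 lie to the right of 0, from 0.78 for Mmp14 to 1.98 for Adamts4, and Adam8 lies farthest to the left at -0.62.

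Recovered counts were available for 31 tested members. Both 14-3-3ε libraries lay above both control libraries in 19 of the 31 and below both in 1, Adam8. The 19 include Adamts15, which had 2 reads in 14-3-3ε library B and 0 in both control libraries. Over the 10400 tested genes with recovered counts the shares were 28.5% above and 28.9% below. Between means of 5000 and 10000 only members were split. Adam9, Adamts1 and Mmp14 therefore have no other gene of their range beside them, here or in the spreads that follow. Spread between libraries of a group was wider for 14-3-3ε. The median fold between libraries A and B over 10392 tested genes with reads in all libraries was 1.20 in 14-3-3ε clones and 1.14 in control clones, and over 30 tested members it was 1.38 in 14-3-3ε clones and 1.22 in control clones. Of these 30 members, 6 differed at least 2-fold between the 14-3-3ε libraries and 2 between the control libraries.

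The Adamts family held the largest changes. Adamts4, an aggrecanase that cuts aggrecan and versican, had recovered counts of 1465 and 1657 in 14-3-3ε libraries and 278 and 395 in control libraries. The lowest 14-3-3ε library was more than 3 times the highest control library. Its log2 fold change was 1.98 ± 0.25, or 3.94-fold (adjusted p 3.19e-13), per the authors' deposited table. Its annotated span lies on chromosome 1 from 171250129 to 171262267.

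Adamts2, which removes the amino-terminal propeptide from procollagens, had recovered counts of 7895 and 4683 in 14-3-3ε libraries and 1391 and 1336 in control libraries. The control libraries lay close together and far below both 14-3-3ε libraries. It rose 3.82-fold, with a log2 fold change of 1.93 ± 0.26 (adjusted p 2.7e-11) per the authors' deposited table. The other procollagen N-proteinase genes were Adamts14, with counts of 1587 and 2080 in 14-3-3ε libraries and 1185 and 1370 in control libraries, and Adamts3, which was listed at 0. Adamts14 showed a log2 fold change of 0.47 ± 0.23 (adjusted p 0.170) per the authors' deposited table, and so was not called.

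Adamts1, an aggrecanase that also cuts versican, had recovered counts of 14408 and 4776 in 14-3-3ε libraries and 3763 and 2679 in control libraries. Library A of the 14-3-3ε clones held 3.02 times the count of library B, and the groups did not overlap. Its log2 fold change was 1.18 ± 0.34 (adjusted p 0.0106) per the authors' deposited table. The ratio of mean recovered counts, 2.98, became 1.48 without that library and 4.47 without library B, so the size of this change rests on 1 library. Adamts5, the neighbouring gene on chromosome 16 and also an aggrecanase, stood at a log2 fold change of 0.66 ± 0.29 (adjusted p 0.124) per the authors' deposited table.

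Adamts10 and Adamts6 are related enzymes, and human ADAMTS10 is known for its part in fibrillin microfibrils. Recovered counts of Adamts10 were 2465 and 2767 in 14-3-3ε libraries and 1116 and 1219 in control libraries. Those of Adamts6 were 2201 and 2170 in 14-3-3ε libraries and 1094 and 1079 in control libraries. Both genes showed close libraries within each group. Adamts10 rose 2.13-fold (log2 fold change 1.09 ± 0.20, adjusted p 2.05e-06) per the authors' deposited table. Adamts6 rose 1.93-fold (log2 fold change 0.95 ± 0.19, adjusted p 2.2e-05) per the authors' deposited table.

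Adamts7 and Adamts12, which cut cartilage oligomeric matrix protein, were not called. Adamts7 had recovered counts of 895 and 1073 in 14-3-3ε libraries and 457 and 708 in control libraries, and Adamts12 had 1027 and 1115 in 14-3-3ε libraries and 837 and 429 in control libraries. In both genes the groups did not overlap. The authors' deposited table gave log2 fold changes of 0.66 (adjusted p 0.0946) for Adamts7 and 0.63 (adjusted p 0.165) for Adamts12. The smallest tested fold of the family was that of Adamts13, the protease of von Willebrand factor, at 0.05 (adjusted p 0.960) per the authors' deposited table.

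Some other Adamts genes had few reads or had their reads mostly in 1 library. Adamts15, another aggrecanase, had 667 reads in 14-3-3ε library A, 2 in library B and 0 in both control libraries, which as recovered counts is 619 and 1.97 in 14-3-3ε libraries and 0 in both control libraries. The log2 fold change of Adamts15 was only 0.15 (adjusted p 0.655) per the authors' deposited table. Adamts16 had recovered counts of 80.7 and 11.8 in 14-3-3ε libraries and 8 and 0 in control libraries. Adamts16 had a log2 fold change of 0.71 with an unadjusted p of 0.0378 and no adjusted p in the authors' deposited table. Adamts9, an aggrecanase that also cuts versican, had 23.2 and 11.8 in 14-3-3ε libraries, from 25 and 12 reads, and 4 and 0 in control libraries. Its log2 fold change was 0.56 ± 0.33 in the authors' deposited table, with no adjusted p. Adamts8 and Adamts20 had 4 reads each, those of Adamts8 all in 14-3-3ε library A and those of Adamts20 all in the control libraries. Adamts18 had 2 reads.

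**Figure D2:**
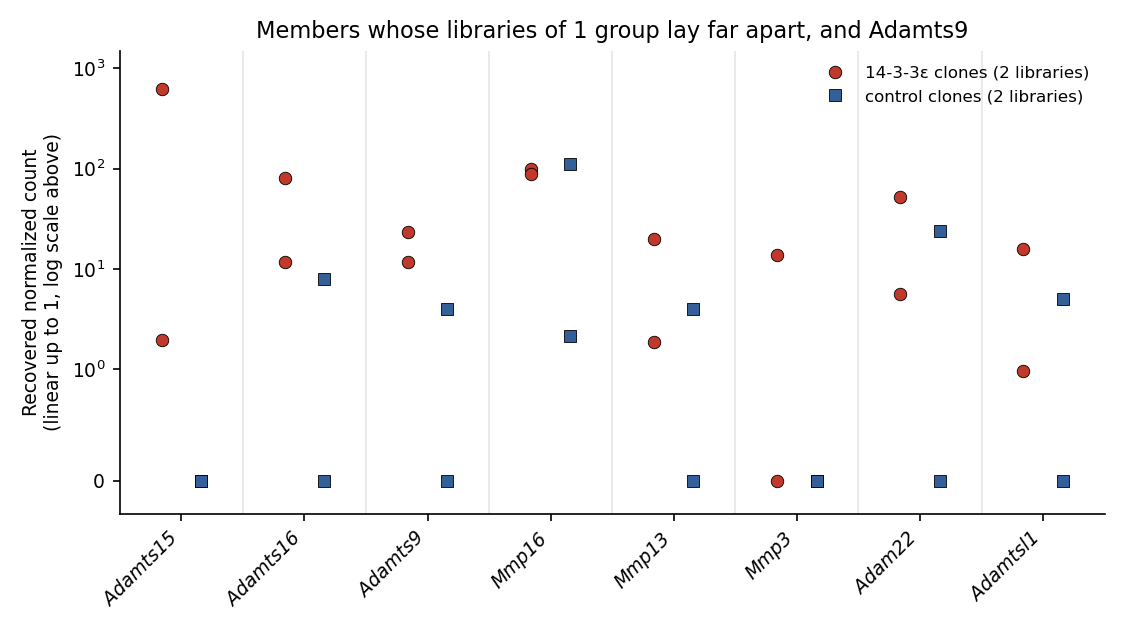
Recovered normalized count (y axis, linear up to 1 and logarithmic above) in each library for 7 members with unlike libraries within a group, and for Adamts9, picked after their values were seen. Circles are the 14-3-3ε libraries and squares the control libraries. Adamts15 stands at 619 in 1 14-3-3ε library and at 0 in both control libraries, whose symbols coincide, and Mmp16 is near 100 in 3 libraries and at 2.16 in 1 control library.

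The Adamtsl genes did not pass the test in either direction. Adamtsl5 had recovered counts of 2918 and 2012 in 14-3-3ε libraries and 2236 and 1791 in control libraries, and Adamtsl4 had 84.4 and 199 in 14-3-3ε libraries and 186 and 87.6 in control libraries. The groups overlapped in both genes. Their log2 fold changes were 0.26 and 0.03 in the authors' deposited table, with adjusted p-values of 0.572 and 0.975. Adamtsl3, with 13 reads in 14-3-3ε libraries and 33 in control libraries, had the lowest log2 fold change of the family at -0.49 and no adjusted p in the authors' deposited table. Adamtsl2, whose human counterpart is tied to microfibrils, had 18 reads in 14-3-3ε libraries and 2 in control libraries, and Adamtsl1 had 18 in 14-3-3ε libraries and 5 in control libraries.

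Mmp19, a secreted protease of basement membrane proteins, had the largest log2 fold change of the tested Mmp genes in the authors' deposited table. Its recovered counts were 3566 and 3091 in 14-3-3ε libraries and 1081 and 913 in control libraries. The groups lay far apart relative to the libraries of each. It rose 3.06-fold, with a log2 fold change of 1.61 ± 0.21 (adjusted p 1.73e-12) per the authors' deposited table. Its span on chromosome 10, from 128790910 to 128800827, overlaps Tmem198b, and the sources used here do not give whether counting used the strand of the reads, so some reads may belong to either gene. The same holds for Timp2 with Cep295nl, Adam17 with Iah1, and Adamts2 and Adam12 with long noncoding genes.

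Mmp14, the membrane-type protease that cuts collagen at the cell surface and activates pro-Mmp2, had recovered counts of 14572 and 9439 in 14-3-3ε libraries and 5724 and 7309 in control libraries. The groups did not overlap. It rose 1.72-fold, with a log2 fold change of 0.78 ± 0.25 (adjusted p 0.0248) per the authors' deposited table. Mmp2, gelatinase A, was not called, with a log2 fold change of 0.35 ± 0.21 (adjusted p 0.323) per the authors' deposited table.

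Mmp9, gelatinase B, had recovered counts of 163 and 19.7 in 14-3-3ε libraries and 9 and 13.0 in control libraries. In 14-3-3ε clones library A stood far above library B and held 176 of the 217 reads of this gene. The log2 fold change was 1.11 ± 0.39 (adjusted p 0.0430) per the authors' deposited table. The ratio of mean recovered counts was 8.33, became 1.79 without library A and 14.9 without library B. With p-values adjusted over all genes that have one, that of Mmp9 was 0.0648, above the threshold of 0.05.

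The other tested Mmp genes did not pass. Mmp11, stromelysin-3, had recovered counts of 3140 and 1035 in 14-3-3ε libraries and 1386 and 2093 in control libraries. Mmp28, epilysin, had 165 and 55.2 in 14-3-3ε libraries and 113 and 108 in control libraries, and Mmp23 had 81.6 and 54.2 in 14-3-3ε libraries and 46 and 55.2 in control libraries. Mmp16, a membrane-type protease, had 99.3 and 88.7 in 14-3-3ε libraries and 111 and 2.16 in control libraries. In all 4 genes the groups overlapped. In the authors' deposited table their log2 fold changes were 0.19 for Mmp11, -0.00 for Mmp28, 0.29 for Mmp23 and 0.23 for Mmp16, with adjusted p-values from 0.707 to 0.998. Mmp23 overlaps Mib2, and Mmp28 overlaps 1700020L24Rik.

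The 10 Mmp genes of chromosome 9 lie within 427.1 kb, from 7272514 to 7699585. They include the collagenase genes Mmp1a, Mmp1b, Mmp8 and Mmp13, the stromelysin genes Mmp3 and Mmp10, matrilysin (Mmp7) and macrophage elastase (Mmp12). Of the 10, 5 were listed at 0, namely Mmp1a, Mmp7, Mmp10, Mmp12 and Mmp27. The whole cluster held 36 reads in 14-3-3ε libraries and 9 in control libraries, and none of its genes had an adjusted p. Mmp13 had recovered counts of 1.86 and 19.7 in 14-3-3ε libraries and 4 and 0 in control libraries. Mmp3 had 14 reads, all in 14-3-3ε library B. Mmp1b, Mmp8 and Mmp20 had 2, 2 and 1 reads, all in control library A. None of the 10 start windows had 5 listed cytosines. Elsewhere in the genome, Mmp15, Mmp17, Mmp21, Mmp24 and Mmp25 had between 2 and 27 reads each.

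**Figure D3:**
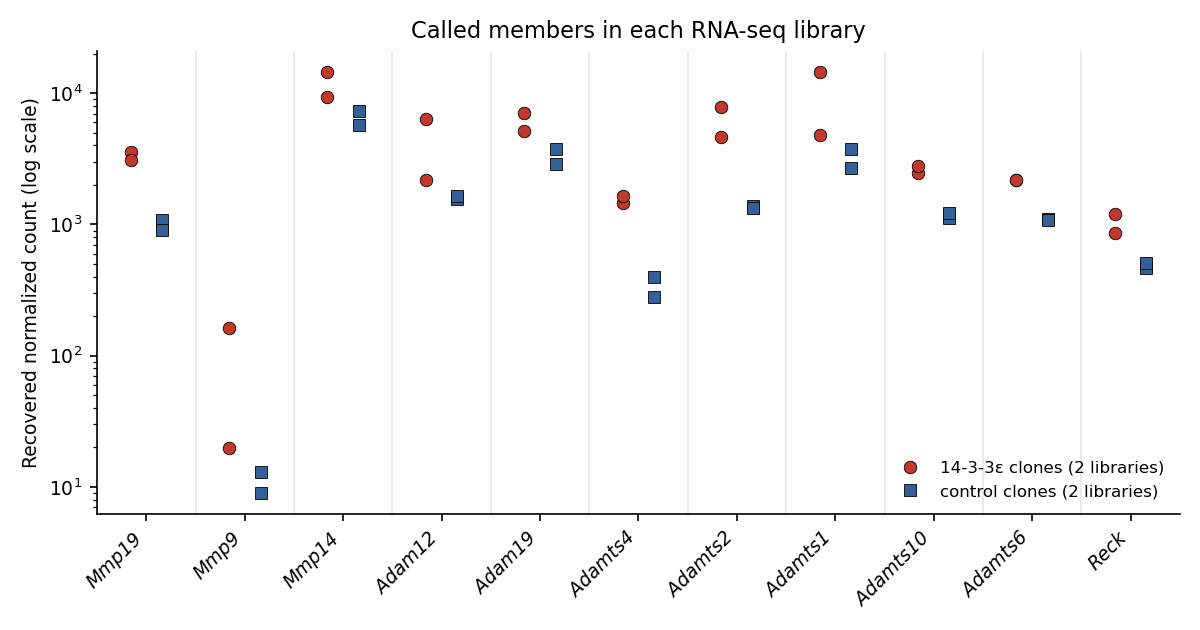
Recovered normalized count (y axis, log scale) in each library for the 11 members with an adjusted p under 0.05, ordered by family and then by log2 fold change. Circles are the 14-3-3ε libraries and squares the control libraries. No circle lies below a square of the same gene, and the circles of Mmp9, Adam12 and Adamts1 lie farthest apart.

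Both called Adam genes are sheddases of the meltrin group. Adam12, meltrin alpha, had recovered counts of 2188 and 6398 in 14-3-3ε libraries and 1553 and 1647 in control libraries. Library B of the 14-3-3ε clones held 2.92 times the count of library A. The log2 fold change was 1.08 ± 0.34 (adjusted p 0.0188) per the authors' deposited table. The ratio of mean recovered counts, 2.68, became 1.37 without library B. Adam19, meltrin beta, had 7027 and 5166 in 14-3-3ε libraries and 2880 and 3754 in control libraries. The groups did not overlap, and it rose 1.73-fold with a log2 fold change of 0.79 ± 0.24 (adjusted p 0.0130) per the authors' deposited table.

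The main sheddase genes of the family, Adam10, which cuts Notch, and Adam17, which releases TNF, were not called. Adam10 had recovered counts of 5098 and 4830 in 14-3-3ε libraries and 4057 and 3582 in control libraries. Adam17 had 2699 and 2051 in 14-3-3ε libraries and 1851 and 2005 in control libraries. Neither gene's groups overlapped, and their log2 fold changes were 0.36 and 0.28 with adjusted p-values of 0.219 and 0.474 in the authors' deposited table. Adam9 had 6377 and 3884 in 14-3-3ε libraries and 5710 and 4668 in control libraries, and Adam15 had 2501 and 2020 in 14-3-3ε libraries and 2598 and 2421 in control libraries. The groups overlapped in both genes, whose log2 fold changes were -0.01 and -0.14 in the authors' deposited table. Adam33 had 118 and 114 in 14-3-3ε libraries and 76 and 38.9 in control libraries, with a log2 fold change of 0.70 (adjusted p 0.223) per the authors' deposited table.

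Adam8, a sheddase known from leukocytes, was the only one of the 31 tested members with recovered counts that had both 14-3-3ε libraries below both control libraries. Its recovered counts were 103 and 130 in 14-3-3ε libraries and 202 and 189 in control libraries. The log2 fold change was -0.62 ± 0.30 (adjusted p 0.188) per the authors' deposited table. Adam23, which lacks an active protease site, had 3109 and 3890 in 14-3-3ε libraries and 3075 and 2509 in control libraries, and Adam11, of the same kind, had 44.5 and 22.7 in 14-3-3ε libraries and 37 and 30.3 in control libraries. Adam22, also without an active site, had 5.57 and 52.2 in 14-3-3ε libraries and 0 and 23.8 in control libraries, so its reads came mostly from library B of each group. Of the 21 Adam genes known mainly from germ cells or testis, 13 were listed at 0 and the other 8 had no adjusted p.

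Of the inhibitor genes, only Reck was called. Reck, which restrains Mmp2, Mmp9 and Mmp14 at the cell surface, had recovered counts of 1205 and 862 in 14-3-3ε libraries and 466 and 513 in control libraries. Both 14-3-3ε libraries lay above both control libraries. It rose 1.95-fold, with a log2 fold change of 0.96 ± 0.25 (adjusted p 0.00256) per the authors' deposited table. Timp1, a secreted inhibitor of most Mmps, had 1349 and 2160 in 14-3-3ε libraries and 1632 and 856 in control libraries, so the groups overlapped. Its log2 fold change was 0.40 ± 0.31 (adjusted p 0.459) per the authors' deposited table, and its span overlaps Syn1. Timp2, which also takes part in the activation of pro-Mmp2, stood at a log2 fold change of 0.17 ± 0.19 (adjusted p 0.643) per the authors' deposited table. Timp3, the matrix-bound inhibitor that also blocks Adam17 and aggrecanases, had the lowest fold of the inhibitors. Its log2 fold change was -0.31 ± 0.17 (adjusted p 0.254) per the authors' deposited table, and its span overlaps Syn3. Timp4 had 5 reads, all in control libraries.

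Members just inside the threshold were Mmp9, Mmp14 and Adam12, with adjusted p-values of 0.0430, 0.0248 and 0.0188 in the authors' deposited table. Outside it, with adjusted p from 0.05 to 0.2, were 5 members, Adamts7, Adamts5, Adamts12, Adamts14 and Adam8, of which 4 had a positive fold. The median log2 fold change was 0.66 over 11 tested Adamts genes, 0.32 over 8 Mmp genes, 0.29 over 10 Adam genes, 0.15 over 2 Adamtsl genes and 0.17 over 3 Timp genes. All 11 tested Adamts genes had a positive fold.

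Partners of these enzymes were counted by lists. The counts of each list stand beside 6.15% called higher and 4.74% called lower over all 11482 tested genes, whose median log2 fold change was -0.00. Of 17 tested genes for activators and cofactors, 6 were higher and 0 lower, with a median log2 fold change of 0.45. They were Plau and Plat, the plasminogen activators, Furin and Pcsk7, proprotein convertases that cut pro-domains, Rhbdf1, which carries Adam17 through the secretory pathway, and Cd63, a tetraspanin that binds Timp1. Plat rose by 1.12 and Plau by 0.86 in log2 units of the authors' deposited table, with adjusted p-values of 0.0113 and 0.00122.

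Of 18 tested substrates of aggrecanases and procollagen N-proteinases, 7 were higher and 0 lower, and the median log2 fold change was 0.58. Col3a1, a procollagen substrate of Adamts2, rose by 3.25 (adjusted p 6.95e-18) per the authors' deposited table. Fbn1, the fibrillin of microfibrils, rose by 1.62, Col5a1 by 1.20, Col1a1 by 0.98, Thbs1 by 0.91, Col1a2 by 0.89 and Vcan, the proteoglycan versican, by 0.69 in log2 units of the authors' deposited table. Their largest adjusted p was 0.0352, that of Vcan. Col1a1 and Col1a2 also belong to the fibroblast markers.

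Of 20 tested basement membrane and collagen substrates of Mmps, 6 were higher and 1 lower, with a median log2 fold change of 0.29. The nidogen genes went opposite ways, Nid2 with a log2 fold change of 2.19 and Nid1 with -0.74 in the authors' deposited table, with adjusted p-values of 1.19e-10 and 0.000908. Tnc, Lama5, Sparc, Hspg2 and Lamb2 rose by 0.53 to 1.33 in log2 units of the authors' deposited table.

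Of 29 tested sheddase substrates, 5 were higher and 3 lower, with a median log2 fold change of 0.09. Ereg, the growth factor epiregulin, fell by 1.85 and Kitl, stem cell factor, fell by 1.57 in log2 units of the authors' deposited table, and Jag1, a Notch ligand, fell by 0.77. Ncam1, Cx3cl1, Il6ra, Tnfrsf1a and Efna5 rose by 0.58 to 1.05 on that scale in the authors' deposited table.

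Among other metalloproteases of the cell surface and matrix, 14 were tested, 2 of them higher and 1 lower, with a median log2 fold change of 0.13. Bmp1, the procollagen C-proteinase, rose by 1.24 (adjusted p 1.02e-05) per the authors' deposited table. Aebp1, a carboxypeptidase-like matrix protein, rose by 0.79 and Phex, a peptidase of bone and tooth, fell by 0.88 in the authors' deposited table. In the list of other protease inhibitors and clearance receptors, 11 were tested, 1 higher and 2 lower, with a median of 0.16. The 1 called higher was Pcolce, listed here although known as the enhancer of procollagen C-proteinase, which rose by 1.15. Slpi, a serine protease inhibitor, fell by 1.58 and Fetub, an inhibitor of astacin-type metalloproteases, fell by 1.54 in log2 units of the authors' deposited table.

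Of 23 transcription factors that act on Mmp promoters, 5 were higher and 1 lower, with a median log2 fold change of 0.18. Egr1 rose by 1.77, Fos by 1.52, Stat3 by 0.88, Junb by 0.86 and Etv1 by 0.72 in log2 units of the authors' deposited table, and Fosl1, another partner of Jun proteins in AP-1, fell by 1.81. Their adjusted p-values were at most 0.0151 in the authors' deposited table.

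Methylation of members was read at their starts. A window of 1000 bases on each side of the start was called if at least 5 cytosines were listed in it, at least 3 with a q under 0.05 in 1 direction, none in the other, and calls at 10% or more. For 54 members the start came from RefSeq, and for the other 31, among them Adamts4, Mmp19, Adamts6, Adamts10, Adam12 and Mmp9, the end of the annotated gene with more listed cytosines stood in for it. Where RefSeq gave several starts, as for Adam19, only the start with most listed cytosines was read. Of 49 members with enough cytosines, 1 was called lower and 0 higher. Over 15394 genes with enough cytosines 1.90% were called lower and 1.11% higher. A count of 1 in 49 is near that share for lower windows, so it sets the members apart in no way. The coverage behind each cytosine is unknown, and the sources used here do not give how the test treated the 2 clones of a group.

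The called window was that of Adamts9, with 85 listed cytosines, 10 of them lower in 14-3-3ε clones and 0 higher, and a mean difference of -7.23 percentage points in the authors' deposited table. Of the 10, 9 lay from 63 to 239 bases after the start, past the sequence printed above, with differences from -48.3 to -26.3 points in the authors' deposited table. In that stretch 26 cytosines were listed with a mean of -15.4 points, against -3.65 points over the other 59 of the window. The tenth lay 140 bases before the start, at -20.3 points in the authors' deposited table. The next fixed tile of 1 kb into the gene, chr6:92942001-92943000, held 6 lower among 10 listed cytosines, with a mean of -16.1 points in the authors' deposited table. The lowest difference stands at position 92943296 of chromosome 6, 238 bases past the start, with a q of 2.5e-05 in the authors' deposited table. This gene had 37 reads in 14-3-3ε libraries and 4 in control libraries.

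Timp3 had the highest mean difference of any member window, 5.11 points over 56 listed cytosines in the authors' deposited table, with 7 higher and 2 lower in 14-3-3ε clones, so it was not called. Of those higher, 6 lay from 34 to 204 bases after the start, with differences from 18.3 to 35.9 points in the authors' deposited table. In that stretch 23 cytosines were listed, with a mean of 10.8 points, against 1.11 points over the other 33. The cytosines called lower lay 379 and 927 bases after the start. Both stretches were delimited after their values were seen, as the longest run of calls in 1 direction with gaps of at most 150 bases.

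**Figure D4:**
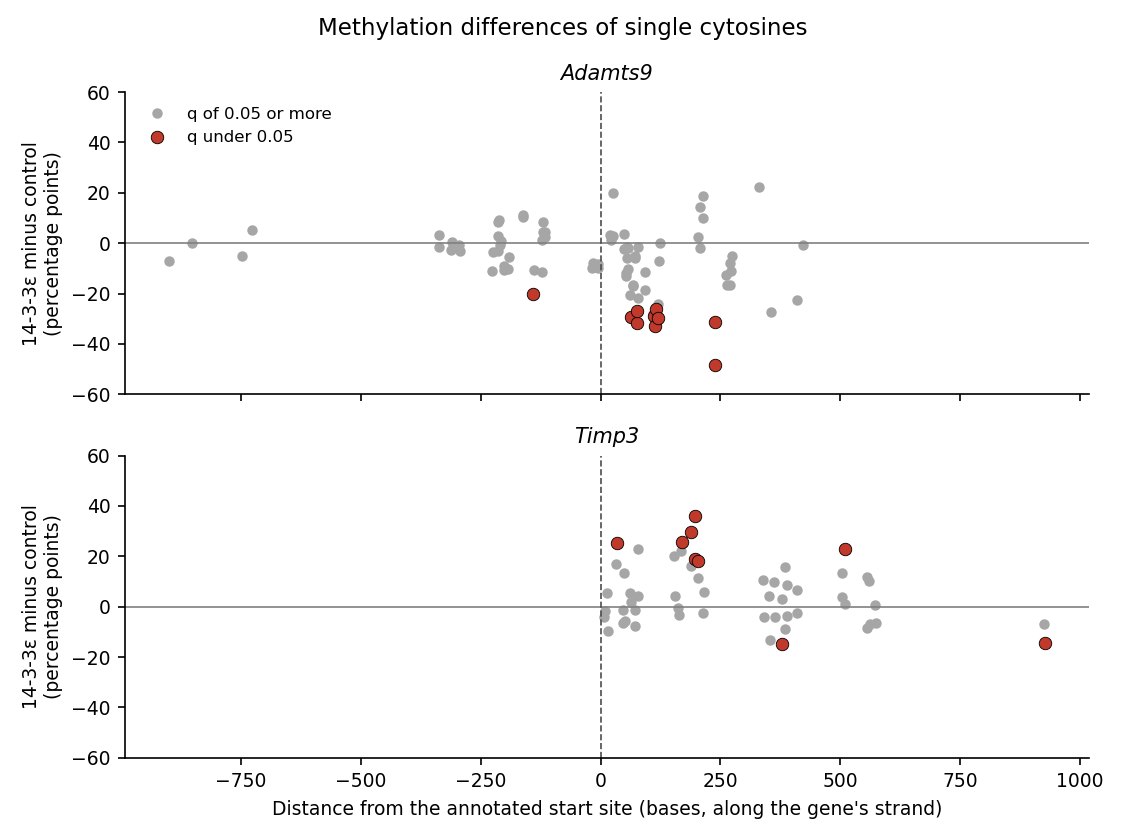
Difference in methylation (14-3-3ε minus control, percentage points, y axis) of each cytosine listed in the authors' deposited table within 1000 bases of the start of Adamts9 and Timp3, against distance from the start along the gene (x axis). Each point is 1 cytosine, larger and red where q is under 0.05. In Adamts9 the 10 called points lie below 0 and 9 of them between 63 and 239 bases, and in Timp3 6 called points lie above 0 between 34 and 204 bases.

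Other windows held calls in both directions or few calls. Adam15 had 11 higher and 3 lower of 116 cytosines, Mmp15 had 9 higher and 4 lower of 140, and Mmp25 had 5 higher and 6 lower of 63 in the authors' deposited table. Adamts7 had 1 higher and 10 lower of 126, with a mean of -0.53 points. In 11 members calls went both ways, and 19 members with enough cytosines had 0 calls.

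Of the 11 members called in RNA, 10 had enough listed cytosines, and their window means lay between -2.38 points for Adamts10 and 1.02 points for Mmp9 in the authors' deposited table. None was called. Adam12 had 6 lower of 152 cytosines, Adamts2 had 5 lower of 148 and Adamts4 had 2 lower of 14 in the authors' deposited table. Mmp14 had 0 called of 111 and Adamts1 had 0 of 52. Reck had 4 higher of 91, all between 590 and 851 bases past the start and from 14.0 to 16.8 points, while the mean of its window was -0.53 points in the authors' deposited table. Mmp19 had 4 listed cytosines and could not be read.

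Over the whole annotated genes, widened by 1000 bases, 7697 cytosines were listed in members. Of these, 2.86% were lower and 1.69% higher at a q under 0.05, beside 2.41% lower and 1.72% higher over 1739776 cytosines in all genes. Among the families, 3.35% were lower and 1.37% higher in 3075 cytosines of Adamts genes, 3.04% lower and 2.43% higher in 1479 of Mmp genes, and 2.08% lower and 1.97% higher in 1780 of Adam genes. In 970 cytosines of Adamtsl genes 3.09% were lower and 0.515% higher, and in 393 of Timp genes and Reck 1.27% were lower and 3.05% higher. Neighbouring cytosines share reads, so these shares carry no test. In fixed tiles of 1 kb, called by the same rule, 10 of 381 member tiles with enough cytosines were lower and 3 higher, beside 2.38% lower and 1.07% higher over 125698 tiles of the genome. The lower ones stood in Adamts9 and Adamts17, with 2 each, and in Adamts10, Adamts20, Adamtsl1, Adam11, Mmp2 and Mmp1b, and the higher ones in Reck, Adam18 and Adam32. The Reck tile had 4 higher of 36 cytosines, but its mean was -1.24 points in the authors' deposited table. The tile in Mmp2, chr8:92847001-92848000, had 4 lower of 8 cytosines with a mean of -7.37 points in the authors' deposited table.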

How the data were processed

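RNA-seq and RRBS were done on 2 14-3-3ε clones and 2 control clones each. Trim Galore, Bismark, Bowtie2, methylKit, TopHat2, HTSeq and DESeq2 and build mm10 are named in the submitters' processing notes, without version or role. For RNA-seq the authors deposited a mean level, a signal read here as the mean normalized count that DESeq2 writes under this header, a log2 fold change with its log2 standard error, a test score (fold change over standard error), a p-value and an adjusted p-value, per the file headers. Deposited folds are moderated toward no change, in genes with few reads and in Adamts4 and Reck, with mean normalized counts of 949 and 762. In the called members whose reads were recovered without use of the deposited fold, that fold lay below the ratio of mean recovered counts. It was 3.94 beside 4.64 for Adamts4, 1.95 beside 2.11 for Reck and 2.16 beside 8.33 for Mmp9. In the other called members the ratio was held close to that implied by the deposited fold, so it could not show moderation. For RRBS the authors deposited, per cytosine, the p-value and q-value and the methylation difference between groups in percentage points (percent), per the file headers. After removal of 253 duplicate lines, 2361680 cytosines remained.

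Reads per library were recovered from the mean by searching whole numbers that return its digits. Up to a mean of 1000, 11922 of 11931 genes had exactly 1 answer. From 1000 to 5000 the log2 ratio of the sides was also held within 0.005 of that implied by the deposited fold and standard error. This relation was fitted here on tested genes with means up to 1000 that had exactly 1 answer without it. Of 2816 such genes set against it, 2781 lay within the tolerance of 0.005. With this relation, 4464 of 4506 genes from 1000 to 5000 had 1 answer. The sides come from the signs of genes with 1 read. Recovered counts were used to describe and to form ratios. They carry no test, and clones are the only replicates. Whole libraries' totals are unknown from the tables.

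A gene was called where the adjusted p of the authors was under 0.05, over all 11482 tested genes. Benjamini-Hochberg adjustment returned the deposited values to within 2.18e-15. Symbols were matched to RefSeq genes of GRCm38.p6, for all 85 members. The window rule and the adjustment were tested on simulated data. So was the recovery, but above a mean of 1000 the simulation supplied the ratio of the sides, so the fitted relation was not tested by it. Simulated means also lay below those of Adamts1 and Mmp14, which were 6407 and 9261. For Adam9, Adamts1 and Mmp14, with means above 5000, the share of genes with 1 answer was not counted. Scripts used Python with numpy and pandas. Named were all called members, all inhibitors, all tested Mmp genes, members with a called start, those with adjusted p from 0.05 to 0.2, the extremes of each family and called genes of the lists. Other members were added after their values were seen. Members and lists were chosen with earlier results of these data known. A motif search and tiles of 1 kb were also added after seeing the data. 1 marker gene and 1 overlap of annotated genes are not reported here.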

Additional observations from a re-analysis of the deposited data

How the results depend on the processing

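With an adjusted p under 0.01, 6 members were called higher in place of 11, with 1 Mmp gene and 0 Adam genes. With a fold of at least 2 as well, 7 members were called higher, with 1 Adam gene and 0 inhibitor genes. A threshold of 0.1, adjustment over all genes with a p-value, and a mean normalized count of at least 100 kept each of these counts within 1.5 times, and 0 members were called lower under each. Under the last 2 of these, 10 members and 2 Mmp genes were called higher and Mmp9 was not: its adjusted p over all genes with a p-value was 0.0648, and its mean normalized count was 51.2. The start of Adamts9 was the 1 called lower in methylation under a difference of at least 25 points, half-widths of 500 and 2000 bases, at least 10 listed cytosines and, added after seeing the data, RefSeq starts alone, but with a q under 0.01 the count was 0. With a half-width of 2000 bases 1 window was called higher, at the gene end of Adam18 that stood in for its start. Of cytosines in member genes, 1.27% were lower and 0.844% higher at a q under 0.01, beside 1.26% and 0.883% over all genes. With at least 25 points as well they were 0.689% and 0.364%, beside 0.649% and 0.421%. Over the 11 called members, 44 ratios of recovered counts were formed with 1 library left out, a step added after seeing the data. All stayed above 1, but this outcome was fixed and is no check of direction. In each of the 11, both libraries of the higher group lay above both control libraries, so no omission could bring the ratio to 1. Only the sizes could vary. The lowest ratio was 1.37, and 5 moved by over 1.5 times, in Mmp9, Adam12 and Adamts1. No paired analysis was possible because the tables hold comparisons with no value tied to a clone, and clone numbers are shared only between the assays. For the same reason the tests could not be refitted without each clone. The depth of single cytosines is unknown, and 29 members with reads had too few for an adjusted p.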
